A study of Homo sapiens with 6 samples.

Results

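Myc peaks were examined at 9 genes of the basal and mesenchymal state of breast cancer, namely ZEB1, SNAI2, EGFR, AXL, MET, CD44, CAV1, VIM and TGFBI, out of 19785 protein-coding genes. The 9 genes were taken by name, as genes known for that state, and the rule that collects their peaks sets no limit on a measured value. Each gene was examined over its body plus 20 kb to either side, and 88 of the 62539 peaks in the deposited lists had a summit in such a window. Where peaks of different libraries overlapped by at least 1 bp they were treated as 1 site, which gave 48 sites in these windows out of 33436 in the genome.

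The cells were MDA-MB-231, a human triple-negative breast cancer line, which lacks the estrogen and progesterone receptors and ERBB2 amplification. Parental cells carried no edit, and TKO cells had the TXNIP gene disrupted with CRISPR/Cas9 and came from clones isolated from single cells, so a difference between TKO and parental cells cannot be told apart from a difference between clones. Both lines grew in the same medium with no drug treatment, and each had 2 libraries of chromatin immunoprecipitation with the Myc antibody D3N8F followed by sequencing. The study asked whether loss of TXNIP, a thioredoxin-binding protein of the arrestin fold that limits glucose uptake, alters where Myc sits in the genome. Peak lists carry no expression values, so the basal or mesenchymal character of these cells was not checked here.

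Myc is a transcription factor that pairs with Max and binds the E-box CACGTG, mostly at active promoters. AP-1 is a pair of Fos and Jun family proteins that binds TGACTCA, which reads TGAGTCA on the other strand, and it is known for occupying enhancers of mesenchymal and basal breast cancer cells. ZEB1 and SNAI2 are zinc-finger repressors of epithelial genes, EGFR, AXL and MET are receptor tyrosine kinases, CD44 is the hyaluronan receptor, CAV1 coats caveolae, VIM is the intermediate filament of mesenchymal cells, and TGFBI is a secreted matrix protein.

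The DNA under the sites that the motif results turn on is printed here as the plus strand of GRCh37, the sequence of the hg19 build. Capitals mark AP-1 or E-box motifs and all else is in lower case. The first set holds, for each gene with an AP-1 motif within 50 bp of a summit, the site of this kind called in most libraries, except SNAI2, whose sequence is not shown here. VIM and TGFBI are shortened to the motif and its flanks because untranslated sequence lies close by.
EGFR intron, chr7:55141819-55141919: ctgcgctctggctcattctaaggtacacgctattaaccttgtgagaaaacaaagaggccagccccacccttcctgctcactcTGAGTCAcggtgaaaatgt
CD44 intron, chr11:35188387-35188487: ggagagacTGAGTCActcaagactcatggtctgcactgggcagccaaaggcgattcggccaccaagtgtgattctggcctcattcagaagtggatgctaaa
AXL internal promoter, chr19:41731798-41731898: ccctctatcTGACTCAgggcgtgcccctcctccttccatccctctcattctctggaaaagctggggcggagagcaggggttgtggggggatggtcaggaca
CAV1 intron, chr7:116168199-116168299: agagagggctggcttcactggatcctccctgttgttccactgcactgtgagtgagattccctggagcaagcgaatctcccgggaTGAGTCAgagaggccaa
VIM promoter, chr10:17270514-17270542: gcagggcgcggTGAGTCAccgccggtgac
TGFBI internal promoter, chr5:135394441-135394469: tcatggaaacaTGAGTCAtactcacagag
The next is the site of these windows with an AP-1 motif within 50 bp of the summit in both TKO libraries, and it holds 2 of them.
AXL intron, chr19:41729597-41729697: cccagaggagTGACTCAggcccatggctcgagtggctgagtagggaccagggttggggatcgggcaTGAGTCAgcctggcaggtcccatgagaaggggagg
The last set holds the E-box at the MET promoter and, for comparison with EGFR, 2 sites that were called in all 4 libraries and have neither motif within 50 bp of the summit printed.
MET promoter, chr7:116312242-116312269: aggcagacagaCACGTGctggggcgggc
CAV1 upstream, chr7:116151831-116151931: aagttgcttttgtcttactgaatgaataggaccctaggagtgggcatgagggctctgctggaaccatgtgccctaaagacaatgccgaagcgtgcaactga
MET intron, chr7:116356838-116356938: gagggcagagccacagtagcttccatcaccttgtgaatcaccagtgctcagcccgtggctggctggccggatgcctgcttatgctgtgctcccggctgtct
MET and ZEB1 had no AP-1 motif within 50 bp of any summit.

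The depth recovered from the lists was 26.4 and 22.2 M reads in parental libraries 1 and 2 and 19.9 and 13.0 M reads in TKO libraries 1 and 2. The lists held 3720, 5719, 27213 and 25887 peaks in that order, a ratio of 5.63 between the TKO and the parental means, so the parental lists were the shorter ones although they came from more reads. The lowest −log10 q-value of a list was between 2.03 and 2.07. Peak height is given as RPM, the reads at the summit per 1000000 reads of the library's depth, and as the percentile of the authors' fold over local background within the same list. Reads were extended to 140 and 151 bp in parental libraries 1 and 2 and to 182 and 201 bp in TKO libraries 1 and 2. A longer extension can raise the reads counted at a summit, and RPM holds no correction for this. A gene without a parental peak had no called peak, and its reads there are not known from these files.

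All 9 genes had a Myc peak in their window in both TKO libraries, against 4 genes in parental library 1 and 6 in parental library 2. Over all protein-coding genes the same windows held a peak for 25.2% and 30.6% of genes in the parental libraries and for 72.1% and 72.4% in the TKO libraries. The windows held 5 and 9 peaks in parental libraries 1 and 2, and 41 and 33 in TKO libraries 1 and 2, which is 7 ± 2.83 (SD, n = 2) against 37 ± 5.66 (SD, n = 2). The groups did not overlap. The ratio was 5.29 and p was 0.333 in the two-sided exact permutation test, the smallest value 2 libraries against 2 can give. The ratio for the 9 genes was close to the 5.63 of the whole lists. When each list was held to its 3720 strongest peaks by fold, the windows held 5, 6, 9 and 3 peaks and the ratio fell to 1.09, and with ranking by −log10 p-value it was 1.36. Lists of equal length remove the excess of TKO peaks over the whole lists by construction, so a lower window ratio was built into this choice.

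Pooled over the 9 genes, peaks were denser in these windows than in windows drawn the same way around every protein-coding gene. Per 100 kb they held 0.450 peaks (95% Poisson interval 0.146 to 1.05) and 0.810 (0.371 to 1.54) in the parental libraries, against 0.201 and 0.285 over all such windows. In TKO they held 3.69 (2.65 to 5.01) and 2.97 (2.05 to 4.17) against 1.40 and 1.35. The interval for parental library 1 includes the value for all windows, and those of the other 3 libraries lie above it. The 9 windows cover 1111 kb, and these intervals hold counting error only, not the variation between genes. The pooled density does not hold for each gene, and the genes were chosen with earlier results of these data known.

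The peaks were unevenly spread over the 9 genes. EGFR had 1 and 2 peaks in the parental libraries and 9 and 11 in TKO, and the AXL window had 1 and 1 against 9 and 7. Some peaks of the AXL window were nearest to the neighbouring gene HNRNPUL1, and those nearest to AXL were 0 and 0 in the parental libraries and 6 and 3 in TKO. VIM had none in parental cells and 5 and 3 in TKO, and TGFBI had 0 and 1 against 5 and 3. CAV1 went from 1 and 2 to 4 and 3. CD44 had 0 and 2 against 2 and 2, and MET had 2 and 1 against 3 and 2. ZEB1 had a single peak in each TKO library although its window is the longest, 251 kb, and SNAI2 had 3 and 1, with none for either gene in parental cells.

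**Figure D1:**
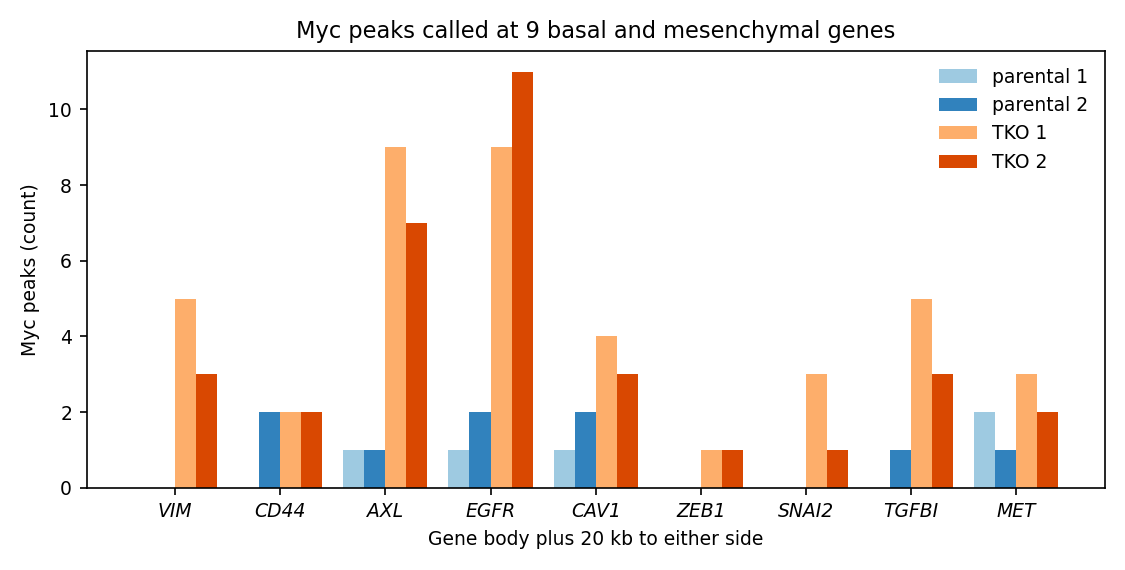
Number of Myc peaks (y axis) in the body plus 20 kb of each gene (x axis) in the 4 libraries (bars, no error bars since each bar is 1 library). EGFR reaches 9 and 11 peaks in TKO, the AXL window 9 and 7, of which 3 and 4 are nearest to HNRNPUL1, and ZEB1 has 1 in each TKO library and none in parental cells.

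At promoters, defined by a summit within 1 kb of an annotated start site of a protein-coding transcript, the 9 genes also had more calls in TKO. In parental library 1 MET alone had a promoter peak, and in parental library 2 CD44 and CAV1 had one, so the parental libraries shared none of these promoters. In each TKO library 8 genes had one, lacking EGFR in TKO library 1 and SNAI2 in TKO library 2. Of all protein-coding genes, 12.2% and 12.9% had such a peak in parental libraries 1 and 2, and 49.1% and 49.7% had one in TKO libraries 1 and 2. Mean counts were 1.5 ± 0.707 and 8 ± 0 genes (SD, n = 2), a difference of 6.50, with p = 0.333 in the exact permutation test, again the smallest possible. With lists of 3720 peaks each the counts were 1, 0, 4 and 1, a difference of 2 genes. A smaller difference is built into lists of equal length, and the share of all protein-coding genes with such lists is not given here. VIM, AXL, ZEB1 and TGFBI, 4 of the 9, had a promoter peak in both TKO libraries and in no parental library, as had 29.8% of all protein-coding genes.

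ZEB1 and SNAI2, the repressors of the epithelial state, had no parental peak, and in TKO they had 1 site and 4 sites. The single ZEB1 site, chr10:31607097-31607982, spanned the 5′ end of the gene, with summits 559 and 583 bp before its main start site, and the peak was 1.60 and 1.92 RPM at the summit in TKO libraries 1 and 2. It stood at the 55.3 and 61.3 percentiles of fold, near the middle of those lists. The rest of the gene held no peak in any library. At SNAI2 the promoter site chr8:49834320-49834737, 600 bp before the start in an exon of a noncoding transcript, was called in TKO library 1 alone at 1.00 RPM. The other 3 SNAI2 sites lay 17572, 18400 and 22075 bp downstream of its start, each in 1 TKO library at 0.997, 1.35 and 0.902 RPM. No SNAI2 site was called in both TKO libraries.

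Among the receptor tyrosine kinases, EGFR had most of its sites inside the gene, while MET had a strong site at its start. The EGFR promoter had a peak in TKO library 2 only, at chr7:55086458-55086660 with 1.30 RPM. A weaker one in the same library, chr7:55087599-55087893, lay 930 bp into the gene at 0.920 RPM. The strongest EGFR site, chr7:55141596-55142155, lay in an intron 55109 bp from the start and was called in all 4 libraries. The summit held 2.04 and 2.52 RPM in the parental libraries (54 and 56 reads) and 5.31 and 5.06 in TKO (106 and 66 reads). Both TKO values were above both parental values, and the TKO mean was 2.27 times the parental mean. The site stood at the 82.8, 98.0, 98.5 and 96.9 percentiles of fold in parental libraries 1 and 2 and TKO libraries 1 and 2, high in each list. A neighbouring EGFR site at 60205 bp was called in parental library 2 and both TKO libraries, at 1.22, 1.85 and 2.68 RPM. Another 5 EGFR sites were called in both TKO libraries and neither parental one, of which the site at 113952 bp was highest in TKO library 2 at 3.14 RPM, with 2.96 in TKO library 1.

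At MET the promoter site chr7:116311681-116312403 held 1.25 RPM in parental library 1, no called peak in parental library 2, and 2.91 and 3.68 in TKO. It ranked high in each list that held it, at the 81.2, 93.6 and 96.2 percentiles of fold. An intronic MET site 44638 bp from the start, chr7:116356696-116357125, was called in all 4 libraries at 1.29, 1.58, 3.41 and 1.99 RPM. TKO was above parental there in both libraries, although the counting interval of TKO library 2 (1.30 to 2.92) overlaps those of both parental libraries. By fold over local background the same site had 4.91, 5.85, 11.8 and 5.17, so TKO library 2 lay between the parental libraries.

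AXL had a promoter site chr19:41724805-41725329, 98 bp before the start, in TKO only, at 1.40 and 1.53 RPM. Another promoter site, chr19:41724524-41724723, 460 bp before the start, was called in TKO library 1 alone at 0.953 RPM. The intronic site 4519 bp into the gene, chr19:41729164-41729889, held 3.16 and 3.99 RPM in TKO, the highest of any TKO-only site in the 9 windows, and was called in neither parental library. Its local background was also high, so its fold stood at the 38.6 and 68.6 percentiles. A further TKO-only site at chr19:41731566-41732288 lay 718 bp before an internal AXL start site, with 2.01 and 2.07 RPM. The site of the AXL window called in all 4 libraries, chr19:41769939-41770557, lies beyond the end of AXL, with its highest summit 27 bp from a start site of HNRNPUL1, a neighbouring gene for a nuclear RNA-binding protein. It held 2.01, 1.89, 4.46 and 5.68 RPM. Without the peaks nearest to a start site of another gene, which include both parental peaks of the AXL window, the windows held 3, 7, 37 and 28 peaks, a ratio of 6.50.

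CD44, CAV1, VIM and TGFBI encode proteins of the surface, cytoskeleton and matrix. The CD44 promoter site chr11:35159983-35161562, which covers the start and untranslated sequence, was called at 1.13 RPM in parental library 2 and at 2.41 and 2.30 in TKO. The CAV1 promoter site chr7:116164622-116165305 was alike, with 1.04 in parental library 2 and 2.26 and 2.22 in TKO. In parental library 2 these were weak peaks, at the 11.6 and 6.60 percentiles of fold, and no parental promoter peak of CD44 or CAV1 was left at a fold or a −log10 q-value of at least 5. A second CAV1 promoter site, chr7:116166318-116167188, lay at an internal start site, 725 bp from it in TKO library 1. It was called in both TKO libraries and neither parental one, at 1.75 and 1.46 RPM. CAV1 also had a site in all 4 libraries 13209 bp upstream, chr7:116151554-116152448, in intergenic DNA whose nearest start site is that of CAV2, the partner of CAV1 in caveolae. That site held 1.59, 1.67, 3.46 and 1.84 RPM, so TKO library 2 was within the counting intervals of the parental libraries. Its fold was 7.35, 7.70, 10.9 and 3.98, lower in TKO library 2 than in both parental libraries.

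VIM had no parental peak in its window. Its main site, chr10:17270139-17271025, just inside the gene, held 2.06 and 1.92 RPM in TKO and stood at the 94.0 and 73.4 percentiles of fold. A neighbouring site, chr10:17271518-17272813, held 1.30 and 1.84. TGFBI had no peak within 1 kb of its main start site in any library. Its promoter call rests on chr5:135394060-135394830, whose summit in TKO library 1 is 42 bp from an internal start site and 29819 bp from the main one, with 2.11 and 1.38 RPM in TKO. Counted by the main start site of each gene alone, a choice made after the values were seen, 1, 2, 7 and 7 genes had a promoter peak and the difference was 5.50. The share of all protein-coding genes counted in that way is not given here. The TGFBI site 8381 bp upstream, with 1.26 RPM in parental library 2 and 1.15 in TKO library 1, was the only one of the 10 sites called in both lines where the TKO mean was not above the parental mean.

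**Figure D2:**
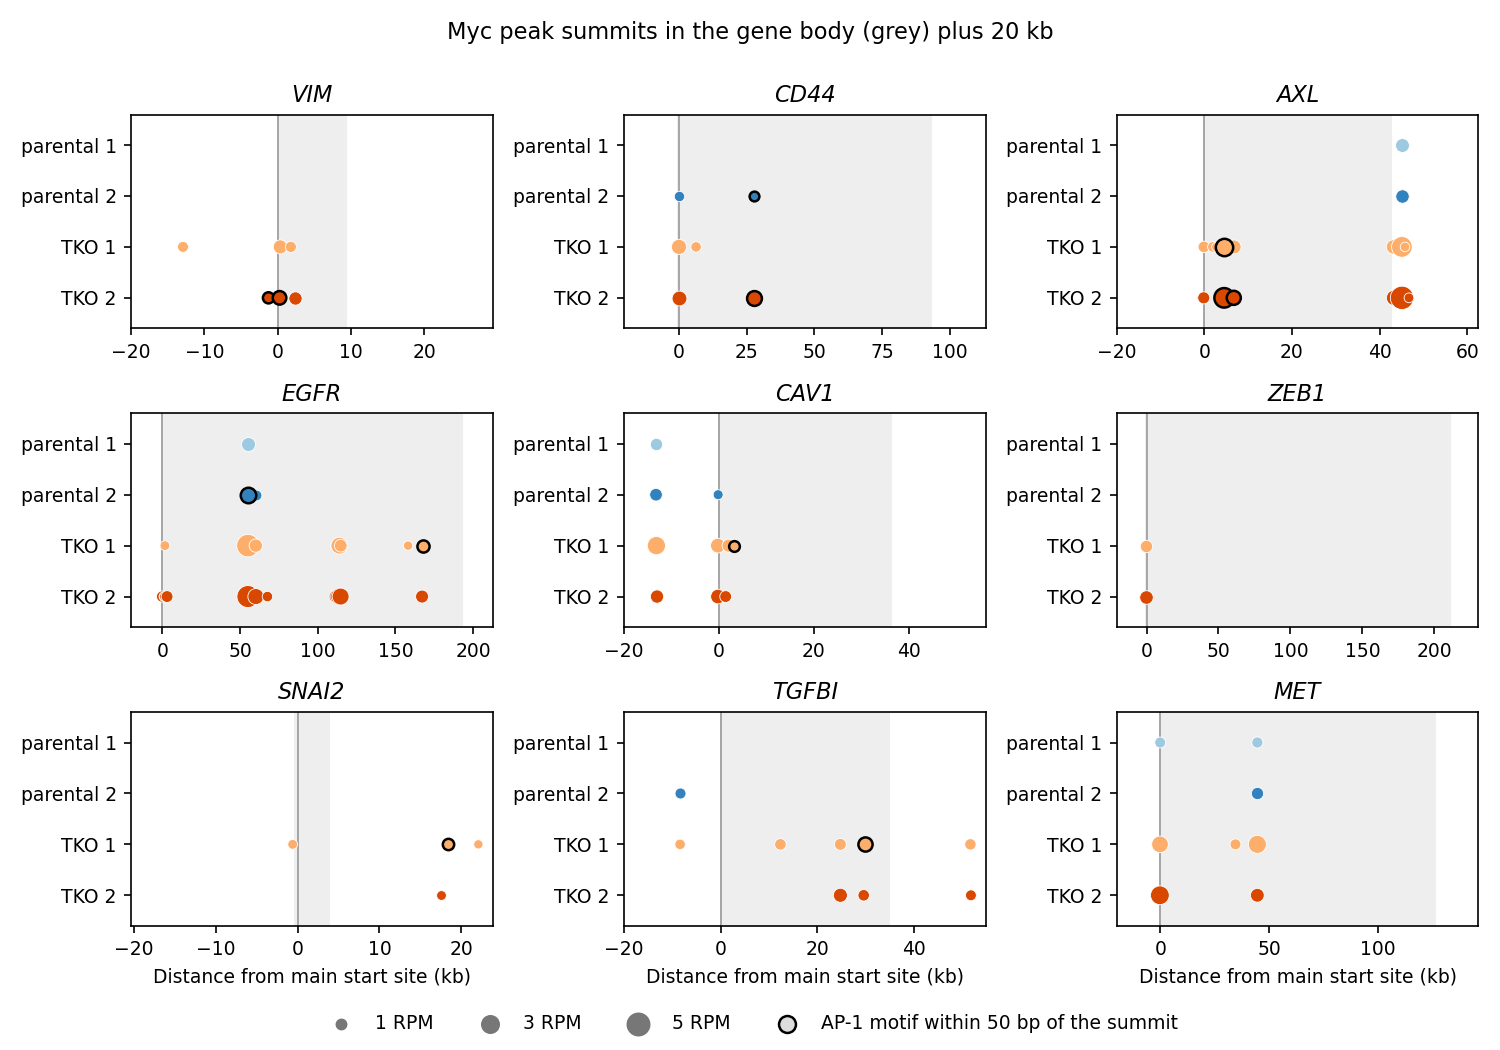
The highest Myc summit of each site by library (rows) along each gene, as the distance from its main start site in kb (x axis). Grey marks the gene body, the area of a point its summit RPM, and a black ring an AP-1 motif within 50 bp of the summit. EGFR carries summits from its promoter to 167434 bp into the gene, the AXL summits beyond the gene's end belong to 5 sites nearest to HNRNPUL1, and the ZEB1 body is empty past its start.

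Of the 48 sites, 16 were called in both TKO libraries and no parental library, 4 in all 4 libraries, 4 in 3 libraries, 2 in 1 library of each line, and 22 in 1 TKO library alone. The TKO-only sites were 33.3% of the sites in the 9 windows and 40.3% of those in the genome. None of the 48 was called in parental cells alone, so all 10 sites called in a parental library were also called in TKO. The genome's share of such sites is not given here. For the narrower class called in both parental libraries and neither TKO library, the genome had 31 of 33436 sites. Over the 4 sites called in all libraries, the median summit was 1.79 ± 0.0121 RPM in parental cells and 3.74 ± 0.306 in TKO (SD, n = 2). The median of the 4 site ratios was 2.08, and p was 0.333 in the exact permutation test on the library medians. Over the 2631 sites of the genome called in all libraries the median ratio was 2.40, the range from the 5th to the 95th percentile was 1.51 to 3.39, and 99.6% were above 1, so the 4 ratios of 1.63 to 2.60 fall inside the spread of shared sites at large. Divided by the extension length of each library as well, since TKO reads were extended further (182 and 201 bp against 140 and 151 bp), the median ratio was 1.60. The genome's 2.40 and the 4 ratios of 1.63 to 2.60 were not divided in this way.

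**Figure D3:**
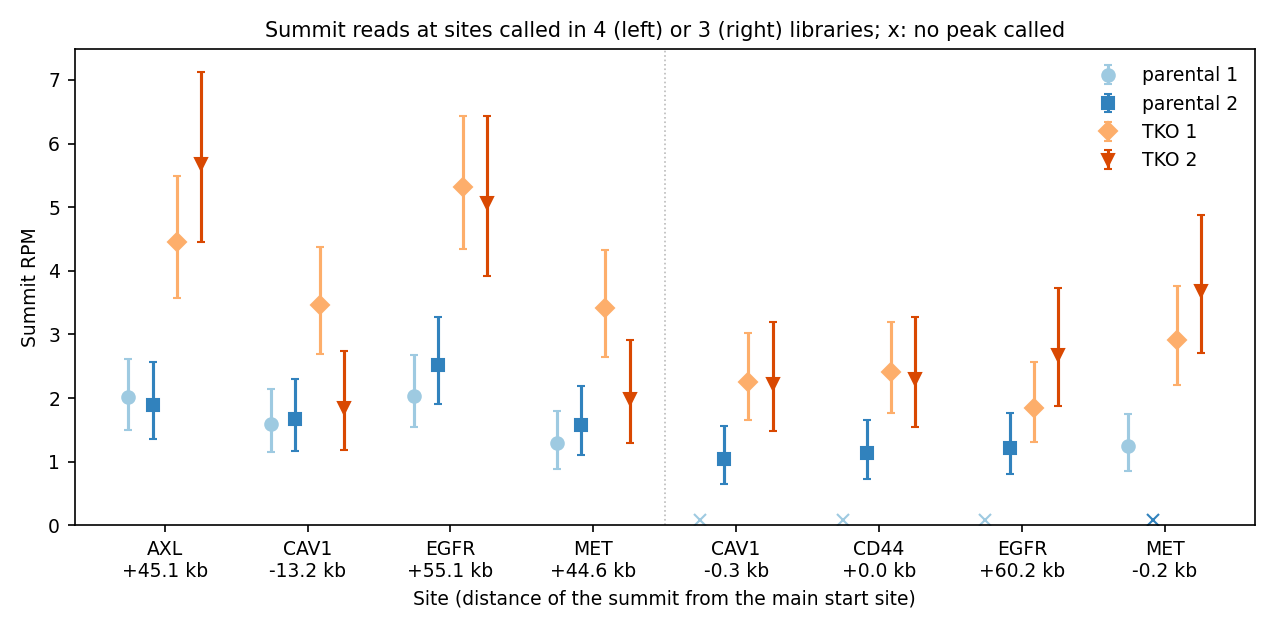
Summit RPM (y axis, from 0) with 95% Poisson intervals at the 8 sites called in 4 libraries (left of the dotted line) or 3 (right), named by gene and distance from its main start site. A cross marks a library without a called peak, which is not a value of 0. TKO points are above the parental points at each site, in RPM not corrected for the longer extension of TKO reads. Their intervals are clear of the parental ones at the AXL site, the EGFR site called in 4 libraries and the MET promoter, and at the other 5 sites at least 1 TKO interval overlaps a parental one.

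AP-1 motifs were searched as TGACTCA or TGAGTCA on either strand within 50 bp of each summit. They were present at 0 of 5 and 2 of 9 window peaks in the parental libraries and at 5 of 41 and 5 of 33 in TKO. As shares these were 22.2% (exact 95% interval 2.81% to 60%) in parental library 2, 12.2% (4.08% to 26.2%) in TKO library 1 and 15.2% (5.11% to 31.9%) in TKO library 2. The exact interval for the count of 0 in parental library 1 ends at 52.2%. Of all peaks in the lists, 7.61%, 13.2%, 8.67% and 6.78% had the motif, and each interval includes its library's value. In windows of equal length 1 kb to either side of the summits, 0 of 82 and 0 of 66 held the motif in TKO, which allow up to 3.66% and 4.55%, against 1.53% and 1.63% at all peaks. In TKO the windows' share was above that of all peaks by 5.95 ± 3.43 percentage points (SD, n = 2). The difference was -5.26 points with lists of 3720 peaks by fold, which left 9 and 3 window peaks, so the order of these shares depends on that choice.

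Of the 10 AP-1 sites 7 lay more than 1 kb from a start site of their gene, as did 34 of all 48 sites. Of window peaks over 1 kb from any start site, 4 of 24 and 3 of 18 had it in TKO, 16.7% in each (4.74% to 37.4% and 3.58% to 41.4%), against 14.1% and 11.1% of all such peaks. By site, 10 of 48 had an AP-1 motif near a summit in at least 1 library, 5 of the 16 TKO-only sites and 1 of the 4 sites called in all libraries. The like share over all sites of the genome is not given here. A site called in several libraries has several summits, so these counts cannot be set against the shares of peaks. The AXL intron printed with 2 motifs was the only site with one within 50 bp of the summit in both TKO libraries. At the EGFR site called in all 4 libraries the motif centre was 35 bp from the summit in parental library 2 and 79, 85 and 110 bp from it in parental library 1 and TKO libraries 1 and 2, so only 1 library met the 50 bp limit although all 4 peaks span the motif. The CD44 intron 27719 bp from the start had it within 26 bp of the summit in parental library 2 and 39 bp in TKO library 2, with 0.992 and 2.30 RPM, and no peak in the other libraries. VIM, TGFBI and the internal AXL promoter each had it within 50 bp in 1 of the TKO libraries. The other AP-1 sites near a summit were called in 1 TKO library each, or lay 167434 bp into EGFR, where 1 of the TKO summits was near the motif.

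Read over whole peaks instead, AP-1 was in 1 of 5, 3 of 9, 16 of 41 and 11 of 33 window peaks, and in 14.3%, 22.4%, 20.1% and 17.6% of all peaks. In TKO that is 39.0% (24.2% to 55.5%) and 33.3% (18.0% to 51.8%), and both intervals lie above the value for all peaks. The window peaks were also wider than the average TKO peak, with means of 468 and 501 bp against 413 and 425 bp, and the part of width in these shares was not tested.

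The E-box, the element Myc itself reads, was rare at these summits. It lay within 50 bp of a summit at 1 of 5 window peaks in parental library 1, the MET promoter, and at 0 of 9, 0 of 41 and 0 of 33 in the other libraries. A count of 0, taken as 3 counts, allows up to 33.3%, 7.32% and 9.09% there. The exact intervals end at 33.6%, 8.60% and 10.6%. Of all peaks 22.6%, 16.9%, 8.82% and 7.58% had an E-box in the 4 libraries. Either limit is below the value for all peaks in TKO library 1, the exact one narrowly, and not in parental library 2 or TKO library 2. At MET the E-box was 22 bp from the summit in parental library 1 and 111 and 165 bp in TKO libraries 1 and 2, so the same element was inside all 3 peaks. Over whole peaks, 1 of 5, 0 of 9, 5 of 41 and 3 of 33 held an E-box, against 33.2%, 26.1%, 18.6% and 17.4% of all peaks. In TKO that is 12.2% (4.08% to 26.2%) and 9.09% (1.92% to 24.3%), and both intervals include the value for all peaks. The ETS motif CCGGAAGT was at none of the window summits, with the same limits for a count of 0, and at 2.90%, 2.13%, 1.16% and 1.30% of all summits.

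**Figure D4:**
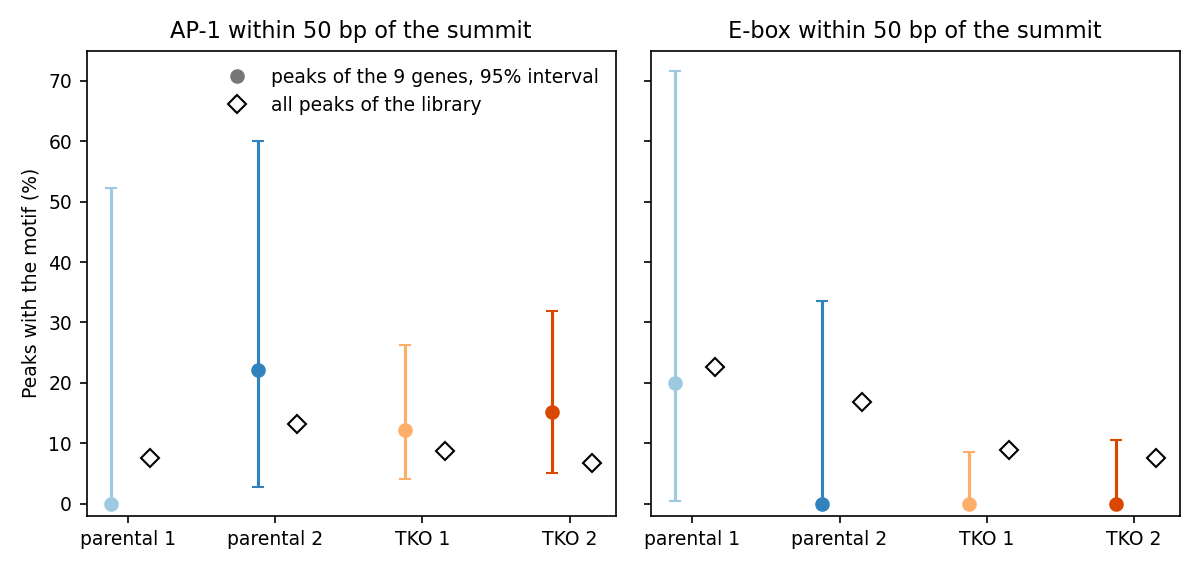
Share of peaks (y axis, %) with an AP-1 motif (left) or an E-box (right) within 50 bp of the summit, for window peaks of the 9 genes (filled circles with exact 95% binomial intervals) and all peaks of each library (open diamonds). In TKO the AP-1 circles are above the diamonds with intervals that include them, and the E-box circles are at 0.

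Promoters were also counted for other genes of the same states. Of 44 further mesenchymal and basal genes, which include SNAI1, FOSL1 and TGFB2, promoter peaks were called for 5 and 7 in the parental libraries and for 24 and 24 in TKO, and 21 of them, 47.7%, had one in both TKO libraries. Of 32 luminal and epithelial genes, among them EPCAM, KRT8, KRT18 and ERBB2, the counts were 1, 3, 14 and 16, with 14 or 43.8% in both TKO libraries. Of all protein-coding genes 45.2% had one in both TKO libraries, and of the 9 genes 7 did. No promoter peak was called in any library for 17 of the 44 and 16 of the 32 genes, and for 46.3% of all protein-coding genes.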

How the data were processed

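Myc ChIP-seq peak lists of 4 libraries were analysed, with replicate numbers and groups from the sample titles. The 2 input samples had no list analysed here. The authors aligned single-end reads to hg19 with Novoalign 3.08.02 and called peaks per library with MACS2 2.1.1.20160309 against input. For each peak the deposited lists give fold, the ratio of reads at the summit to the background around it, and a score computed from the q-value. The authors' p-value and q-value are on the −log10 scale. Duplicate handling is not given in the sources used here. The study names its libraries biological replicates. The permutation p-values rest only on how these libraries divide between the lines, cannot fall below 0.333, and do not measure the spread between replicates.

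Summit reads and depth were solved from fold and p-value, with a genome of 2700000000 bases assumed. A whole read number met the p-value within 0.002 (−log10) for 100% of peaks in each list. The recovery was tested on simulated data. RPM is summit reads per 1000000 reads of depth, with no spike-in. Intervals (95%, exact) and limits for a count of 0 (3 counts) cover counting error only. Start sites (55751) and annotation came from GENCODE 44 lifted to GRCh37, whose main start site per gene is that of its canonical transcript. Sequence came from GRCh37, and 11 mitochondrial peaks were left out of motif counts.

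Groups were compared by two-sided exact permutation tests over libraries. All 9 genes were described. Coordinates were given for their promoter sites, sites in all 4 libraries and the site of highest mean fold percentile in TKO, and sequences for AP-1 sites called in most libraries and promoter sites with an E-box. Other printed sites were added after seeing values. The members, the lists of other genes and the rules were chosen with earlier results of these data known. Alternatives were a −log10 q-value or fold of at least 5, lists of 3720 peaks, other windows, start sites, motif windows and site definitions, a replicate block and each library left out. Software was samtools 1.23.1, pysam 0.24.0, pandas 2.3.3, scipy 1.17.1, numpy 2.4.6, Python 3.11.15 and matplotlib 3.10.9.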

Additional observations from a re-analysis of the deposited data

How the results depend on the processing

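Over 4 main values and their alternatives, 44 alternative values kept their direction and size within the limits set for them, 6 moved and 1 turned sign. All 7 came from holding the lists to equal length or from reading motifs over whole peaks. Among the 44, the AP-1 difference still ran from 3.52 points without TKO library 2 to 9.20 points over the gene body alone. Some of the 44 could not have moved. The AP-1 difference uses TKO libraries only, so leaving out a parental library returned 5.95 points again. The promoter difference with a replicate block equals the difference of the means by arithmetic. With 3720 peaks per list, the ratio of window peaks was 1.09 ranked by fold and 1.36 ranked by −log10 p-value, and the difference in genes with a promoter peak was 2 by either ranking. The AP-1 share of window peaks minus that of all peaks in TKO was -5.26 percentage points ranked by fold, 1.88 ranked by −log10 p-value, and 17.3 with the motif anywhere in the peak. Such lists leave 3 to 9 window peaks per library and remove the difference in list length. A lower window ratio and a smaller promoter difference were therefore built into that alternative by construction. The value for reads at shared sites was not computed with lists of equal length. With each library left out in turn, the window ratio ran from 4.11 to 7.40, the promoter difference from 6 to 7, the AP-1 difference from 3.52 to 8.37 points and the reads ratio from 1.80 to 2.53. With a replicate block, which compares same-numbered libraries, the window ratio was 5.48, the promoter difference 6.50 and the reads ratio 2.06. The sample titles give replicate numbers only, so whether same-numbered libraries were processed together is not known. Their deviations correlated at 0.0105 over sites of the genome, which does not settle this. Fold in place of reads gave a ratio of 1.64. Limits are 2 libraries a line, a TKO line grown from single cells, peak lists without coverage outside peaks, and 5 to 9 parental window peaks.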
